A study of Homo sapiens with 4 samples.

Results

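The 10 genes described here belong to the insulin-like growth factor (IGF) axis and were chosen by gene symbol from the 20322 targets of the deposited count table: the ligand gene IGF2, the receptor genes IGF1R, IGF2R and INSR, the adaptor genes IRS1 and IRS2, and the binding protein genes IGFBP2, IGFBP3, IGFBP4 and IGFBP6. RNA was sequenced from 4 libraries of HT-29, a line of human colorectal adenocarcinoma cells. All had been treated with CRISPR/Cas9 against IMP1, the RNA-binding protein encoded by IGF2BP1, were kept under puromycin, and are described as derived from a tumor labelled mouse liver metastasis. The IMP1-OE group (2 libraries) then received the PiggyBac vector PB*-FLAG-IMP1-short UTR, meant to put FLAG-tagged IMP1 back, and the null group (2 libraries) received PB*-empty. The design text counts 2 cell lines per genotype. Whether replicates were separate clones or separate cultures is not stated further, so each p-value reflects the spread among these 4 libraries alone, and that spread may be technical.

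IGF2 is a secreted fetal growth factor from an imprinted gene, and its mRNA gave the IMP family its name because these proteins were found bound to it. The ligand signals through the tyrosine kinase receptors IGF1R and INSR, which pass the signal to the docking proteins IRS1 and IRS2 and on to PI3 kinase and AKT. IGF2R, the mannose-6-phosphate receptor, takes IGF2 up and sends it to lysosomes, while the secreted binding proteins carry the ligand and limit its access to receptors. Loss of IGF2 imprinting and high IGF2 expression are known features of a subset of colorectal cancers. The question asked of these libraries was which of these mRNAs differed in level between cells given the IMP1 vector and cells given the empty vector. IMP1 protein was not measured in these files.

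Library totals ran from 9343429 to 10594813 estimated counts. A single gene, ARSI, held 8.01% and 12.4% of the counts in the IMP1-OE libraries and 17.8% and 17.3% in the null libraries. The fit was therefore also run with ARSI left out. The targeted gene was checked first: IGF2BP1 had 71 and 112 counts in the IMP1-OE libraries, against 37 and 16 counts in the null libraries. The groups thus stand in the order the labels give, with an edgeR adjusted p of 0.453, and the counts cannot separate transcripts with and without the edit. The libraries carried epithelial mRNAs at high level, with the 13 listed markers of colorectal epithelium summing to 26559 and 27326 CPM (counts relative to library size, scaled by the TMM method) in IMP1-OE and 28817 and 21041 CPM in null. Most of each sum came from 2 keratin genes. KRT8 was at 12127 and 12181 CPM in IMP1-OE and 12826 and 9484 in null. KRT18 was at 9641 and 10632 CPM in IMP1-OE and 9379.5 and 6865 in null. The intestinal markers CDX1, CDX2, CDH17 and GPA33 were low and uneven, with null replicate 1 the highest library for each. That library had 0.88, 4.6, 12.3 and 5.87 CPM of them in turn, and no other library exceeded 2.76 CPM for any. CEACAM5, another of the listed epithelial markers, was likewise highest in null replicate 1, at 59.3 CPM against 3.83 to 10.2 CPM elsewhere. So were markers of higher level: VIL1 (212 against 107 to 149.7), KRT20 (585 against 344 to 462) and LGALS4 (2546 against 1183 to 1413). The same was seen for CDH1 (774 against 468 to 598) and KRT8. The remaining listed markers, EPCAM, KRT18 and KRT19, were highest in an IMP1-OE library. Summed markers of fibroblasts (2.09 to 6.28 CPM in IMP1-OE, 2.52 to 13.1 CPM in null), endothelium (3.14 and 4.09 CPM in IMP1-OE, 2.35 and 2.95 in null) and melanocytes (2.76 to 3.81 CPM in IMP1-OE, 1.47 to 1.64 CPM in null) were low, and ALB, APOA1, KDR, CD3E, PDGFRA, MLANA and TYR had no count in any library. The leukocyte, hepatocyte and chondrocyte sums were higher (1751 and 1899, 686 and 725, and 198 and 218 CPM in IMP1-OE, against 1431 and 2817, 225 and 438, and 181 and 262 CPM in null), and were almost all LYZ, SERPINA1 and SOX9, which colorectal cancer cells also express. The part of these markers in the results below was not tested. The 2 null libraries stood further apart than the 2 IMP1-OE libraries: the chi-square statistic per degree of freedom between replicates was 19.2 for IMP1-OE and 55.3 for null.

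**Figure D1:**
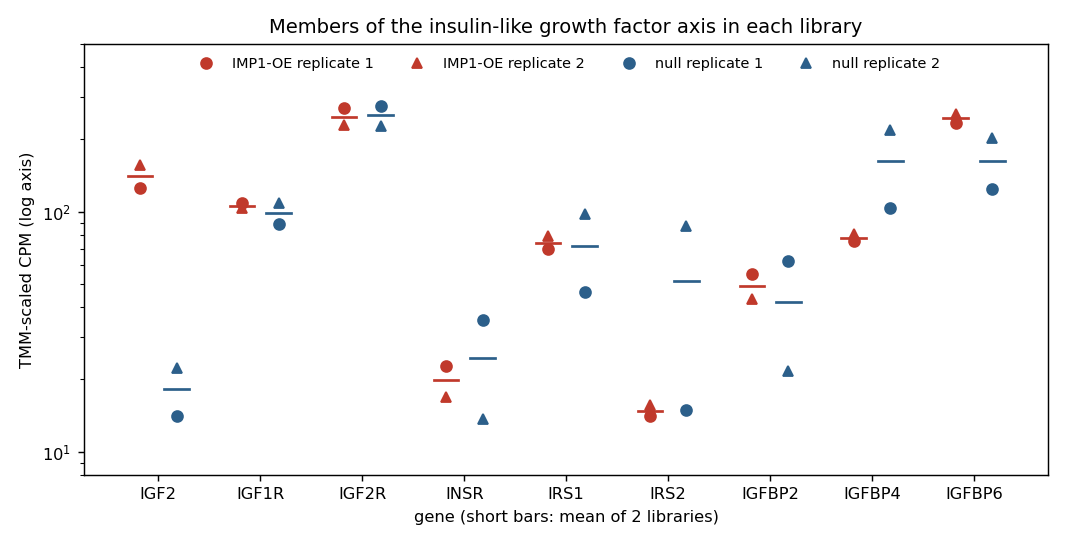
TMM-scaled CPM (log axis) of the 9 tested members in each of the 4 libraries, with IMP1-OE in red and null in blue; symbols are replicates and short bars are the means of 2 libraries. IGF2 lies between 126 and 156 CPM in IMP1-OE and between 14 and 22.3 CPM in null, while IRS2, INSR, IRS1, IGFBP2 and IGFBP4 are widely spread in null.

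The ligand gene showed the clearest difference among the members. IGF2 had 1321 and 1639 counts in the IMP1-OE libraries and 143 and 204 counts in the null libraries. This is 126 and 156 CPM in IMP1-OE, against 14 and 22.3 in null. The groups did not overlap, and the lowest IMP1-OE library was 5.63 times the highest null library. The mean was 141 ± 21.3 CPM in IMP1-OE and 18.2 ± 5.90 in null (SD, n = 2 each), and the fitted difference was 7.76-fold, with a 95% interval from edgeR of 4.74-fold to 12.7-fold. In these bulk samples more IGF2 RNA per cell and more cells with IGF2 RNA cannot be told apart.

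By edgeR's quasi-likelihood test IGF2 did not pass the threshold of 0.05 after adjustment over all genes. Its log2 fold change was 2.96 (SE 0.29), its unadjusted p was 5.55e-05 and its adjusted p was 0.124, which it shared with 4 other genes. Only 3 of the 12113 tested genes had a smaller p, and edgeR called none (0% of genes). By DESeq2 the same counts gave IGF2 a log2 fold change of 2.96 (SE 0.31) with an adjusted p of 1.02e-17, in a comparison where 164 of 12836 genes passed (1.28%). The authors' deposited table gives IGF2 a log2 fold change of 2.90 (SE 0.32) and an adjusted p of 1.02e-17. That adjusted p is the same as the one from DESeq2 here, so it is not a second line of support. In edgeR the call depended on the libraries kept. With either null library left out IGF2 passed: its log2 fold change was 2.66 (adjusted p 0.00492) without null replicate 1, where 783 genes passed (6.46%), and 3.33 (adjusted p 0.013) without null replicate 2, where 48 genes passed (0.396%). It did not pass without IMP1-OE replicate 1 (3.10, adjusted p 0.317) or IMP1-OE replicate 2 (2.80, adjusted p 0.497). For a single gene the smallest two-sided p that an exact permutation test of 2 against 2 libraries can give is 0.333.

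The IGF2 target in the table is a protein-coding transcript of 934 nt, the shortest target of the 10 members, and each gene is represented by 1 target. Counts from transcripts that start at different IGF2 promoters, or that differ in their untranslated regions, cannot be separated. The read-through gene INS-IGF2, which shares IGF2 sequence, had 0 counts in every library, which allows up to 3 counts each. INS, the insulin gene next to it, had 0 counts except for 6 in IMP1-OE replicate 2, and the related ligand gene IGF1 had 0 counts in every library. IGF2 was therefore the ligand mRNA of the axis with counts above the floor of 3 in all 4 libraries.

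**Figure D2:**
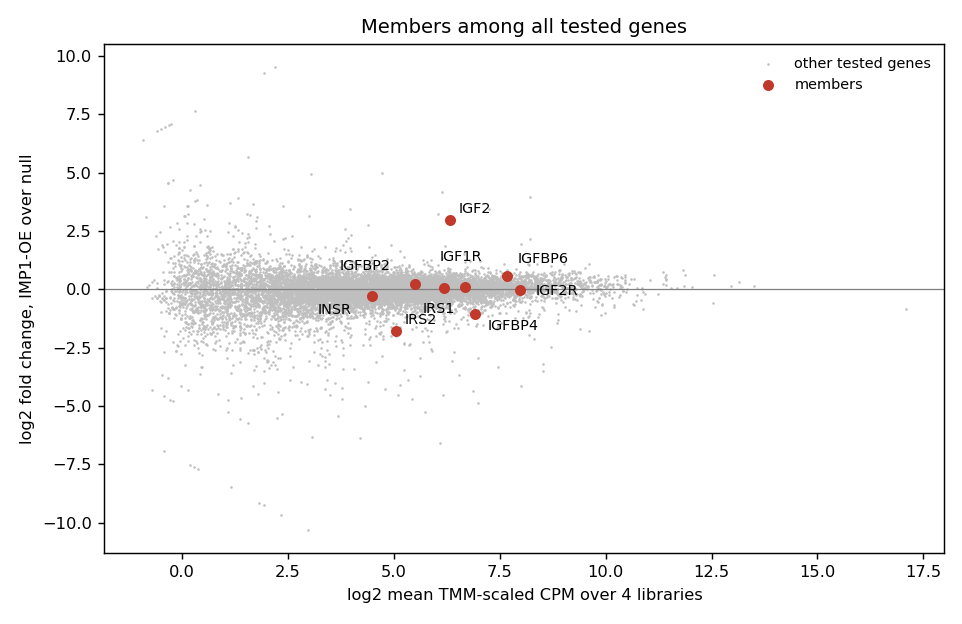
Log2 fold change of IMP1-OE over null (vertical axis) against log2 mean TMM-scaled CPM over the 4 libraries (horizontal axis) for the 12113 tested genes, with the 9 tested members in red. IGF2 stands at 2.96, and the receptor and IRS1 points lie within 0.30 of 0.

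Of the receptor genes, IGF2R, the clearance receptor, had the largest number of counts, 2838 and 2408 in IMP1-OE and 2817 and 2082 in null. That is 270.1 and 229 CPM in IMP1-OE, against 276 and 228 in null, so the groups overlapped almost completely. The fitted log2 fold change was -0.01 (95% interval -0.48 to 0.45, adjusted p = 0.988 by edgeR), and its sign turned with upper-quartile scaling and with library totals alone. Any difference was thus limited to between 0.718-fold and 1.37-fold by this interval, which does not show that the groups are alike.

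IGF1R, the main signalling receptor for both IGF ligands, had 1143 and 1090 counts in IMP1-OE and 905 and 993 in null. Its level was 109 and 104 CPM in IMP1-OE and 88.5 and 109 in null, with overlapping groups. The log2 fold change was 0.11 (95% interval -0.35 to 0.56, adjusted p = 0.879 by edgeR). INSR, the insulin receptor gene, whose product also binds IGF2 in its fetal isoform, was lower in counts, with 240 and 178 in IMP1-OE and 361 and 125 in null. At 22.8 and 16.9 CPM in IMP1-OE against 35.3 and 13.7 in null, both IMP1-OE libraries lay between the null libraries. Its log2 fold change was -0.30 with a wide interval of -1.44 to 0.84 (adjusted p = 0.860 by edgeR), and it stood at 0.54 once null replicate 1 was left out and at -0.83 once null replicate 2 was.

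The adaptor genes differed in how steady they were. IRS1 had 731 and 832 counts in IMP1-OE and 473 and 893 in null, which is 69.6 and 79.1 CPM in IMP1-OE and 46.3 and 97.7 in null. Both IMP1-OE libraries again lay between the null libraries, and the log2 fold change was 0.05 (95% interval -0.83 to 0.92, adjusted p = 0.977 by edgeR). IRS2 had 148 and 164 counts in IMP1-OE, close together at 14.1 and 15.6 CPM. In null it had 152 and 799 counts, or 14.9 CPM in replicate 1 and 87.4 CPM in replicate 2.

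The mean of IRS2 was thus 14.8 ± 1.06 CPM in IMP1-OE and 51.2 ± 51.3 in null (SD, n = 2 each), and the lower null library lay inside the IMP1-OE range. The log2 fold change was -1.78 (SE 0.75, unadjusted p = 0.0565, adjusted p = 0.501 by edgeR). With null replicate 1 left out it was -2.56, and with null replicate 2 left out it was -0.0029. The lower IRS2 level in IMP1-OE therefore rested on null replicate 2 alone, in which IRS2 was 5.88 times as high as in null replicate 1.

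The binding protein genes did not move in a shared direction. IGFBP6, whose product prefers IGF2 over IGF1, had 2466 and 2686 counts in IMP1-OE and 1272 and 1843 in null, which is 235 and 255 CPM in IMP1-OE against 124 and 202 in null. The groups did not overlap, but the lowest IMP1-OE library was only 1.16 times the highest null library. Its mean was 245 ± 14.6 CPM in IMP1-OE and 163 ± 54.6 in null (SD, n = 2 each), and the log2 fold change was 0.59 (95% interval -0.05 to 1.22, unadjusted p = 0.0645, adjusted p = 0.508 by edgeR). Leaving out null replicate 1 gave 0.28, and leaving out null replicate 2 gave 0.98.

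IGFBP4, a binding protein that mostly holds IGFs back from their receptors, lay on the other side. It had 791 and 848 counts in IMP1-OE and 1068 and 2010 in null, which is 75.3 and 80.6 CPM in IMP1-OE against 104 and 220.0 in null. The groups did not overlap, and the lowest null library was 1.30 times the highest IMP1-OE library. The means were 77.9 ± 3.77 CPM in IMP1-OE and 162 ± 81.7 in null (SD, n = 2 each), with a log2 fold change of -1.06 (SE 0.35, unadjusted p = 0.0249, adjusted p = 0.453 by edgeR). It passed without null replicate 1, at -1.5 (adjusted p = 0.00706), and was -0.42 without null replicate 2 (adjusted p = 0.328). The authors' deposited table gives IGFBP4 a log2 fold change of -0.73 and an adjusted p of 0.136. DESeq2 here gave the same adjusted p with a log2 fold change of -1.05, so the -0.73 may be on another scale.

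IGFBP2 had 577 and 455 counts in IMP1-OE and 637 and 197 in null, or 54.9 and 43.3 CPM in IMP1-OE against 62.3 and 21.6 in null. Both IMP1-OE libraries lay between the null libraries, and the log2 fold change was 0.23 (95% interval -0.95 to 1.40, adjusted p = 0.905 by edgeR). Its direction depended on which null library was used, with 1.19 without null replicate 1 and -0.34 without null replicate 2. IGFBP3, the main carrier of IGFs in blood, had 0 counts in all 4 libraries, which allows at most 0.285 CPM in either IMP1-OE library and 0.293 and 0.328 CPM in the null libraries. It was the 1 member that did not pass the low-count filter and was not tested.

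**Figure D3:**
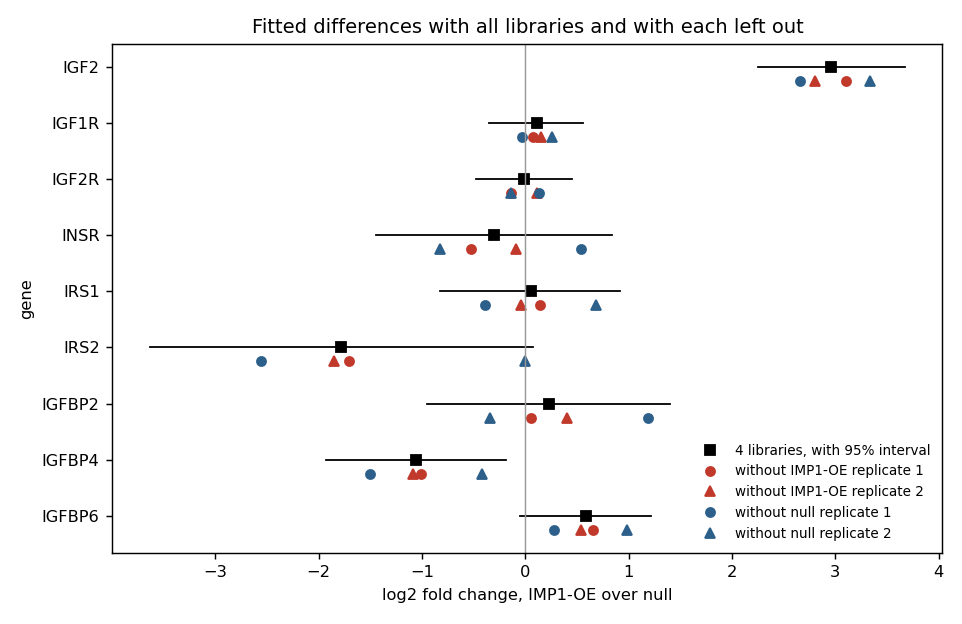
Fitted log2 fold change of IMP1-OE over null (horizontal axis) for each tested member, with all 4 libraries (black squares, with the 95% interval from edgeR) and with each library left out (coloured symbols). IGF2 stays between 2.66 and 3.33, while IRS2 is at -2.56 without null replicate 1 and near 0 without null replicate 2.

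Across the axis, 0 of the 9 tested members passed an edgeR adjusted p of 0.05. At an unadjusted p under 0.05 there were 2, IGF2 higher and IGFBP4 lower, where 10.2% of all tested genes reached that level (4.34% higher and 5.84% lower). A log2 fold change of at least 1 in size was seen for 3 members (IGF2, IRS2 and IGFBP4) and for 9.93% of all tested genes. DESeq2 called 1 member, IGF2, and limma-voom called 0. DESeq2 called 4 members without null replicate 1 (8.4% of genes) and 2 members, IGF2 and IGFBP6, without null replicate 2 (2.11% of genes). Groups did not overlap for 3 of the 9 members, 2 higher (IGF2 and IGFBP6) and 1 lower (IGFBP4) in IMP1-OE, where 43.2% of all tested genes did not overlap, so the count is near the background. The median log2 fold change was 0.05 over the tested members and -0.02 over all tested genes. The highest ratio between the IMP1-OE libraries was 1.35 for any tested member, whereas the null libraries were at least 2-fold apart for 5 members (INSR, IRS1, IRS2, IGFBP2 and IGFBP4). Over all tested genes 6.90% were that far apart in IMP1-OE and 15.2% in null. Of these members IRS1, IRS2 and IGFBP4 were higher in null replicate 2, and INSR and IGFBP2 were higher in null replicate 1. For each of the 9 members the null libraries were further apart than the IMP1-OE libraries.

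Levels of different genes were compared per length of target, as CPM per kb. IGFBP6 was the highest member in every library, at 248 and 269.6 CPM per kb in IMP1-OE and 131 and 213 CPM per kb in null. IGF2 was the second highest member in both IMP1-OE libraries, at 135 and 167 CPM per kb. In null it was at 15.0 and 23.9 CPM per kb, the fifth member in replicate 1 and the third in replicate 2, with IGFBP4 second in both. This order depends on dividing by length: by CPM alone, over all 4 libraries, IGF2R ranked 1, IGFBP6 2 and IGF2 5 of the 9 detected members.

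In IMP1-OE the other detected members ran from IGFBP4 (35.3 ± 1.71 CPM per kb) and IGFBP2 (34.7 ± 5.83 CPM per kb), which did not differ beyond their spread, through IGF2R (17.7 ± 2.07 CPM per kb), IGF1R (8.68 ± 0.298 CPM per kb) and IRS1 (7.61 ± 0.689 CPM per kb) to INSR (2.22 ± 0.467 CPM per kb) and IRS2 (1.82 ± 0.130 CPM per kb), whose ranges overlapped. In null the order from IGFBP2 (29.7 ± 20.4 CPM per kb) downward was not set, because IGF2R (17.9 ± 2.40 CPM per kb) lay above it in replicate 2 and IRS2 was at 1.82 CPM per kb in replicate 1 and 10.7 CPM per kb in replicate 2.

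The balance between ligand and binding protein mRNAs followed from these levels. IGF2 stood at 42.0% and 49.5% of the summed CPM per kb of IGFBP2, IGFBP4 and IGFBP6 in the IMP1-OE libraries, against 6.72% and 7.29% in the null libraries. The sum itself was 321 and 337 CPM per kb in IMP1-OE and 223 and 328 CPM per kb in null. IGFBP6 made up 77.3% and 80.1% of that sum in IMP1-OE and 59.0% and 64.9% in null, and IGFBP4 made up 10.6% and 10.9% in IMP1-OE and 21.3% and 30.4% in null. The groups did not overlap in these shares, but they overlapped in the share of IGFBP2 (12.1% and 9.08% in IMP1-OE, 19.8% and 4.65% in null). Of all tested genes 43.2% did not overlap in level, and with 2 libraries each no permutation p under 0.333 is possible. IGF1R over INSR, per kb, was 3.49 and 4.48 in IMP1-OE and 1.84 and 5.82 in null, and IRS1 over IRS2 was 4.12 and 4.23 in IMP1-OE and 2.60 and 0.933 in null. These are mRNA levels, and secreted protein was not measured in these files.

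**Figure D4:**
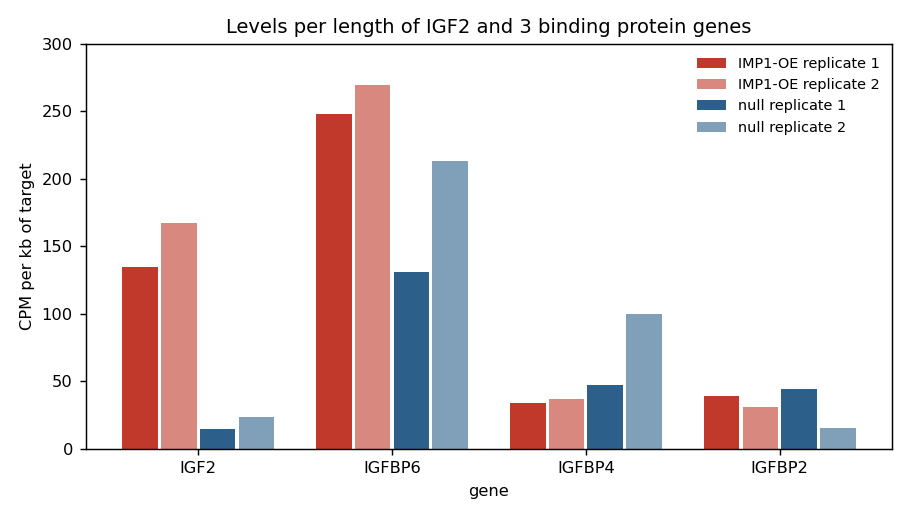
CPM per kb of target (vertical axis, from 0) for IGF2 and the 3 detected binding protein genes in each library, with IMP1-OE in red shades and null in blue shades. IGF2 reaches 135 and 167 CPM per kb in IMP1-OE, between IGFBP6 and IGFBP4, and 15.0 and 23.9 CPM per kb in null.

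Genes around the members came from 6 wider lists, chosen like the members with earlier results of these data known. Among ligands, adaptors and regulators next to the receptors, 9 of 20 genes passed the low-count filter, with 3 higher and 6 lower in IMP1-OE, and a median log2 fold change of -0.09, which was -0.16 and -0.03 when null replicates 1 and 2 were left out in turn. Groups did not overlap for 1 of the 9, where 43.2% of all tested genes did not overlap. In each of the 6 lists 0 genes passed an adjusted p of 0.05 by edgeR. GAB1, a docking protein that joins IRS proteins downstream of receptors, was the 1 gene of the 9 at an unadjusted p under 0.05. Of all tested genes 10.2% reached that level, so this count is near the background. GAB1 was at 8.76 and 9.22 CPM in IMP1-OE against 15.9 and 15.8 in null (log2 fold change -0.82, unadjusted p = 0.0312, adjusted p = 0.46 by edgeR). The other binding protein genes were close to absent: IGFBP7 had 0 counts in each library, IGFBP1 at most 2 and IGFBP5 at most 3. IGFALS, which encodes the third subunit of the circulating IGF complex, had at most 10.

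Of the genes that process IGF2 or release it from binding proteins, 6 of 15 were tested, with 2 higher and 4 lower. The median was -0.17, which was -0.48 when null replicate 1 was left out and -0.13 when null replicate 2 was. Groups did not overlap for 2 of the 6, both lower, where 21.9% of all tested genes were lower without overlap. ADAM9, a membrane protease, was at 127 and 101 CPM in IMP1-OE against 153 and 179 in null (log2 fold change -0.54, unadjusted p = 0.0343, adjusted p = 0.464 by edgeR). PAPPA, the protease that cleaves IGFBP4, had at most 10 counts in any library, and FURIN, a convertase of proprotein precursors, had 455 and 575 counts in IMP1-OE and 281 and 672 in null. Of 28 tested genes of PI3K, AKT and mTOR signalling, 14 were higher and 14 lower, with a median of 0.01. Groups did not overlap for 2 higher and 3 lower genes, where 21.3% of all tested genes were higher and 21.9% lower without overlap. EIF4EBP1, a translation inhibitor that mTOR phosphorylates, was at 9.80 and 11.3 CPM in IMP1-OE against 21.3 and 26.9 in null (log2 fold change -1.19, SE 0.28, unadjusted p = 0.00509, adjusted p = 0.433 by edgeR). INPP4B, a phosphatase of PI3K lipid products, was at 13.1 and 13.4 CPM in IMP1-OE against 15.5 and 83.6 in null. Its log2 fold change was -1.90 with all libraries (unadjusted p = 0.0408 by edgeR), -2.65 without null replicate 1 and -0.22 without null replicate 2. DEPTOR, an mTOR inhibitor gene, had a log2 fold change of similar size, -1.89, but its libraries were spread within both groups, at 10.4 and 2.47 CPM in IMP1-OE against 40.8 and 6.78 in null (unadjusted p = 0.0995, adjusted p = 0.553 by edgeR).

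FOXO factors and their commonly listed targets, which AKT holds down in many cells, had 4 higher and 12 lower of 16 tested and a median of -0.28, which was -0.08 without null replicate 2. At an unadjusted p under 0.05, 3 were lower. BBC3, which encodes the cell death protein PUMA, was at 9.80 and 4.66 CPM in IMP1-OE against 15.6 and 30.6 in null (log2 fold change -1.68, adjusted p = 0.447 by edgeR). CAT, the catalase gene, was at 131 and 111 CPM in IMP1-OE against 175 and 180.1 in null (log2 fold change -0.56). BCL6, a transcriptional repressor gene, was at 16.0 and 11.1 CPM in IMP1-OE against 20.2 and 26.6 in null. Its log2 fold change was -0.79, with -0.97 without null replicate 1 and -0.58 without null replicate 2. None of the 3 passed an edgeR adjusted p of 0.05 (adjusted p 0.447 to 0.482), and 5.84% of all tested genes were lower at an unadjusted p under 0.05. Groups did not overlap for 7 lower and 2 higher genes of the 16, where 21.9% of all tested genes were lower and 21.3% higher without overlap. The 2 higher ones were the factors themselves: FOXO1 was at 42.0 and 54.9 CPM in IMP1-OE against 22.3 and 41.6 in null (log2 fold change 0.60, adjusted p = 0.59 by edgeR), and FOXO3 was at 68.5 and 74.1 CPM in IMP1-OE against 64.2 and 38.0 in null (0.48, adjusted p = 0.602).

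Genes of IGF2 mRNA-binding proteins and of listed regulators of IGF2 transcription had a log2 fold change above 0 for 8 of 8 tested genes, with a median log2 fold change of 0.43. For 6 of the 8 the groups did not overlap (21.3% of all tested genes were higher without overlap). The gap was thin for IGF2BP2, with 59.4 CPM in the lowest IMP1-OE library against 59.3 in the highest null library. It was also thin for HMGA1 (322 against 317) and IGF2BP3 (85.3 against 81.4). The gap was wider for ELAVL1 (237 against 196), HMGA2 (3.14 against 2.08) and IGF2BP1. The 2 with overlapping groups were CTCF, the insulator factor that limits enhancer access to IGF2 (log2 fold change 0.12), and the transcription factor gene PLAG1 (0.09). The list holds IGF2BP1, which the vector supplies, so the median and the counts above include it. IGF2BP1 was at 6.76 and 10.6 CPM in IMP1-OE against 3.62 and 1.75 in null. It was the 1 gene of the list at an unadjusted p under 0.05 (0.0235 by edgeR). Of all tested genes 4.34% were higher at that level. The direction of IGF2BP1 had been seen in earlier results of these data. Those results were known when the list was chosen, so the list as a whole is not independent support. Genes of the imprinted cluster that holds IGF2 had 8 higher and 2 lower of 10 tested. Their median was 0.31, with 0.64 when null replicate 1 was left out and 0.13 when null replicate 2 was. Groups did not overlap for 4 higher and 2 lower genes, where 21.3% of all tested genes were higher and 21.9% lower without overlap. NAP1L4, a histone chaperone gene, was at 185 and 202 CPM in IMP1-OE against 127 and 123 in null (log2 fold change 0.63, unadjusted p = 0.00910, adjusted p = 0.435 by edgeR). CDKN1C, an imprinted cell cycle inhibitor gene, was at 2.38 and 2.28 CPM in IMP1-OE against 9.88 and 4.71 in null (log2 fold change -1.64, unadjusted p = 0.0276, adjusted p = 0.456 by edgeR; -1.01 without null replicate 1). H19, the noncoding neighbour of IGF2, was not analysed here.

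**Figure D5:**
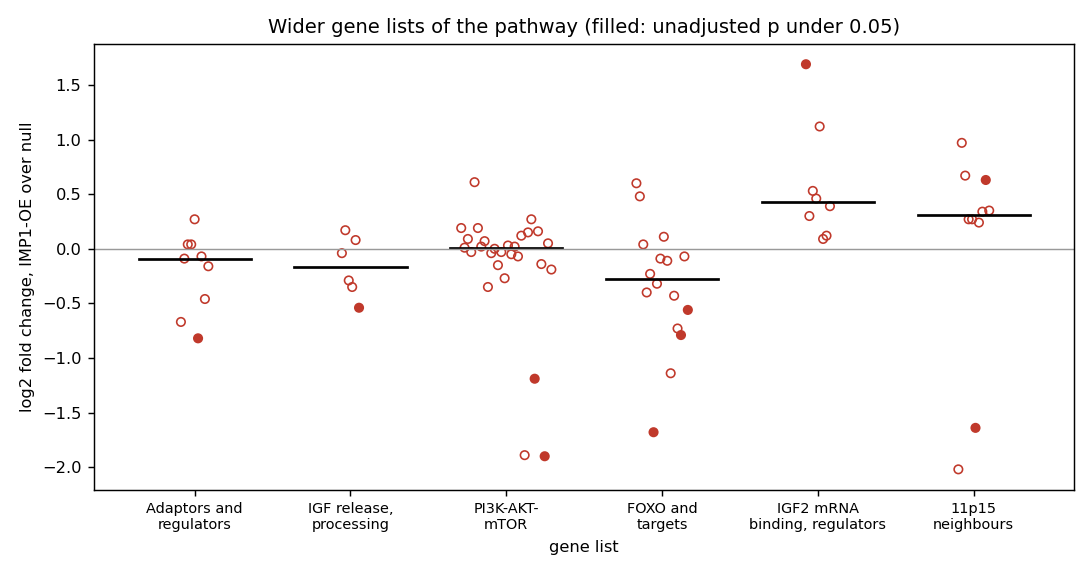
Log2 fold change of IMP1-OE over null (vertical axis) for each tested gene of the 6 wider lists, with filled points at an unadjusted edgeR p under 0.05 and black bars at the list medians. The PI3K-AKT-mTOR median is at 0.01, and all 8 genes of IGF2 mRNA binding and regulation lie above 0.

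The genes whose pattern over the 4 libraries was most like that of IGF2, by distance between centred log2 CPM values (prior count of 2) among the other 12112 tested genes, were the targets ENSG00000288710 (distance 0.08), WDR86 (0.18), ENSG00000267385 (0.38), ASPRV1 (0.50) and SPDYE18 (0.53). All had few counts: WDR86, a gene of a WD repeat protein, had 22 and 27 in IMP1-OE against 1 and 2 in null, and ASPRV1, a skin protease gene, had 11 and 17 in IMP1-OE against 0 in both null libraries. At such counts the log2 values depend on the prior count, and the plain ratio of mean CPM was 14.7 for WDR86 against 7.75 for IGF2, so these 5 genes are not shown to follow the pattern of IGF2. Among genes with a mean of at least 100 counts, a limit set after seeing these values, the nearest were PTPN7, a phosphatase gene (distance 0.71, 26.6 ± 1.70 CPM in IMP1-OE against 5.26 ± 2.46 in null), the collagen IX gene COL9A3 (0.99) and the adhesion molecule gene MCAM (1.11). With only 4 libraries this likeness is a description.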

How the data were processed

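Each estimated count was deposited by the authors per target and library in kallisto's column layout, per the file headers, for 20322 targets, 1 per gene. Per the submitters' processing notes the tools were kallisto 0.46.2, HISAT2 2.1.0, fastp 0.21, cutadapt 3.5 and DESeq; the genome build was not given in the sources used here. Per the labels' protocols, short alkaline fragments were ligated to linkers with molecular identifiers. Whether these identifiers removed PCR copies is not given, so floors (3 counts) cover counting error only. All counts were whole as deposited. The TPM column, a scaled score deposited by the authors for each target and library, per the file headers, was not used. Values under 2 other sample names, which no label matches, were not analysed. The authors' comparison table holds, per the file headers, log2 fold changes, p-values and a mean count signal. For every tested member its p and adjusted p were the same as those from DESeq2 here. Its log2 fold changes were smaller in size, as for IRS2 (-0.03 against -1.78 by DESeq2 here). They may be shrunken, which the table does not state.

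Counts were fitted with edgeR 4.0.16 (R 4.3.3): TMM scaling, default low-count filter (12113 genes kept), quasi-likelihood F test, IMP1-OE against null, no covariate, Benjamini-Hochberg adjustment over all tested genes, threshold 0.05. CPM values are TMM-scaled; intervals come from the fit. Alternatives were each library left out, ARSI left out, a replicate block, different filters, different scalings, voom (limma 3.58.1) and DESeq2 1.42.0. DESeq2 without each library was added after the data were seen. Steps were run on simulated data in which both groups had the same spread. The real groups differed in spread (chi-square per degree of freedom 55.3 in null and 19.2 in IMP1-OE), so that run does not vouch for the fit here. Members and lists were chosen with earlier results of these data known. Genes named outside the members had the smallest unadjusted p under 0.05 in their list (at most 4), were nearest to IGF2, or, for ligand, binding protein and processing genes with their counts, FOXO1, FOXO3, DEPTOR, CTCF, PLAG1 and the nearest genes of higher count, were chosen after their values were seen. The same holds for IGF2BP2, IGF2BP3, HMGA1, HMGA2 and ELAVL1.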

Additional observations from a re-analysis of the deposited data

How the results depend on the processing

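The direction of IGF2 held under every setting run. Its log2 fold change was 2.96 with DESeq2 and with the edgeR likelihood ratio test, 2.95 without a low-count filter (adjusted p 0.00765) and 2.98 with the replicate block (adjusted p 0.0119), each past the threshold, and 2.66 to 3.33 with a library left out (DESeq2: 2.67 and 3.33 without null replicates 1 and 2, 3.10 and 2.81 without IMP1-OE replicates 1 and 2, all passing). It did not pass with voom, other scalings, a count of 10 in every library or ARSI left out (adjusted p 0.0915 to 0.152), or in edgeR without either IMP1-OE library (0.317 and 0.497). Genes called over all genes numbered 0 in edgeR, 164 with DESeq2, 155 with the likelihood ratio test, 22 without a filter, 15 with the replicate block, 1 with voom and 1 with the stricter filter, 0 to 783 in edgeR with a library left out (0 without either IMP1-OE library, 48 without null replicate 2), and in DESeq2 27 and 33 without IMP1-OE replicates 1 and 2 and 1025 and 263 without null replicates 1 and 2. In those fits the lone library is assumed to vary like the other group. Members called numbered 1 with DESeq2, the likelihood ratio test, no filter and the replicate block, 0 to 4 in edgeR with a library left out, and in DESeq2 4 and 2 without null replicates 1 and 2. Same-numbered libraries share only a number (correlation of deviations 0.131). Members other than IGF2 newly passed only with a null library left out. These were IRS2, IGFBP2 and IGFBP4 without null replicate 1, and IGFBP6 in DESeq2 without null replicate 2. Of 126 other alternative values for the members and IGF2BP1, which do not include DESeq2 with a library left out, 9 turned in sign. Those lay in the ranges with a library left out of IGF1R (-0.03 to 0.26), IGF2R (-0.14 to 0.13), INSR (-0.83 to 0.54), IRS1 (-0.39 to 0.68) and IGFBP2 (-0.34 to 1.19), and in IGF2R with upper-quartile scaling (0.0017) and library totals alone (0.07). The cause was not tested. Without dividing by length, the rank of the level among the 9 detected members was 5 for IGF2 (2 per kb), 1 for IGF2R (5 per kb) and 2 for IGFBP6 (1 per kb). The 5 genes nearest to IGF2 shared 1 gene with the 5 nearest by correlation. Depth limits IGFBP3, INS and the low binding protein genes.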
